A study of Mus musculus with 13 samples.

Results

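CatSper is the calcium channel of the sperm tail, and its potassium partner KSper sets the membrane voltage at which CatSper works. The genes described here are 10 of the 25965 genes in the deposited table, chosen by name as subunits of these channels: the pore genes Catsper1, Catsper2, Catsper3 and Catsper4, the auxiliary subunit genes Catsperb, Catsperd, Catsperg1 and Catsperg2, the KSper pore gene Kcnu1, and Lrrc52, its auxiliary subunit. All 10 had reads in all 13 libraries and all 10 passed the filter on low values. The table holds 9 under these symbols and Catsperd under its older symbol Tmem146. The values are RPM, the reads of a gene scaled to a common library total.

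The libraries were made from whole testes of adult mice aged 15 weeks, after the outer capsule had been removed. The labels give 3 wild-type mice (WT), 4 Wfdc15a+/- mice (Het) and 6 Wfdc15a-/- mice (KO), and name no strain and no further allele or treatment. The series' design text pools WT and Het as control (n = 7) and sets the KO mice (n = 6) against them, to ask what Wfdc15a does in sperm formation. The sources used here do not say how the knockout allele was made. The titles also carry a number of unknown meaning, which is 1 for Het replicate 1 and KO replicates 1 to 3, and 2 for the 3 WT libraries, the other Het libraries and KO replicates 4 to 6.

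As background, the CatSper pore is built from 4 different subunits, each from its own gene, with the auxiliary subunits forming a large canopy outside the membrane. Alkaline pH inside the sperm opens the channel, and calcium entry drives the whip-like beat called hyperactivation. Loss of any pore subunit makes male mice infertile. Kcnu1 encodes SLO3, a potassium channel of sperm that also opens at alkaline pH, and LRRC52 shifts its opening to voltages found in sperm. The genes are transcribed in the testis by germ cells, during meiosis and in spermatids, well before the channels work in mature sperm.

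The 10 genes lie on 9 chromosomes of mm10, and Catsperg1 and Catsperg2 share chromosome 7. In the coordinates of the table, Catsper1 spans chr19:5335741-5344153 and Catsper2 chr2:121392631-121413792. Catsper3 spans chr13:55784568-55808998 and Catsper4 chr4:134211970-134227383. Catsperb spans chr12:101404673-101626009, Catsperd chr17:56628143-56664456, Catsperg1 chr7:29181321-29214035 and Catsperg2 chr7:29697219-29727015. Kcnu1 spans chr8:25849623-25937933 and Lrrc52 chr1:167445675-167466780. The sources used here do not say how reads were assigned to genes.

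Sequences of 2 kinds bear on how far these values can be read gene by gene. Catsperg1 and Catsperg2 are near-identical copies: their coding sequences, of 3453 and 3435 bases, were 96.4% identical over 3432 aligned bases in GENCODE M21, an annotation of the same genome build. The first 90 coding bases differ at 1 base, shown in capitals and otherwise in lower case, from the start codon on.
Catsperg1: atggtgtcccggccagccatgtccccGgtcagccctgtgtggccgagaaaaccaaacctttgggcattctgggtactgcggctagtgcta
Catsperg2: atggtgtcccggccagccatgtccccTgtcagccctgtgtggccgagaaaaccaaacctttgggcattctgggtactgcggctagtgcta
Of all 50-base windows of the Catsperg1 transcript, 41.0% occur exactly in that of Catsperg2, and 42.5% in the other direction. With 100-base windows these shares were 21.3% and 22.8%. A read that lies wholly in such a window fits both genes, so the split between Catsperg1 and Catsperg2 is uncertain. Their summed RPM is given for control, for KO and for each KO number, and whether shared reads were counted is not given.

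Catsper2 is the only 1 of the 10 that overlaps another gene of the table. Its start lies against that of Pdia3, which encodes a protein-folding enzyme and runs in the opposite direction. The 30 bases around the shared start are given from RefSeq (GRCm38.p6, chr2:121413769-121413798, minus strand), with the 18 bases that are exon in both genes in capitals.
Catsper2 start: ggacgcTTAGGCGAACGCCCGCCGgtctgg
The shared bases made up 0.487% of the 3695 exon bases annotated for Catsper2 over all its transcripts. The library method, Smart-seq2, keeps no strand. Pdia3 rose from 387 ± 32.6 RPM (SD, n = 7) in control to 469 ± 42.2 RPM (SD, n = 6) in KO, with a log2 difference of 0.28 (SE 0.0762, adjusted p = 0.0115 by limma). Its part in the reads of Catsper2 was not tested.

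The depth of the libraries was 4.51 to 11.1 M reads, so that 1 read was worth 0.0899 to 0.222 RPM. The lowest value among the 10 genes rested on 91 reads (Lrrc52) and the highest on 2598 reads (Catsper2). The targeted gene, Wfdc15a, averaged 65.5 ± 12.5 RPM (SD, n = 7) in control and 44.6 ± 21.8 RPM (SD, n = 6) in the libraries labelled KO, so that the log2 difference was -0.66. An exact permutation test gave a two-sided p of 0.0338 over 1716 regroupings, and 5 of 6 KO libraries were below the control mean. It was 28.1 ± 7.60 RPM in the KO libraries of title number 1 and 61.2 ± 17.7 RPM in those of number 2 (SD, n = 3 each). KO replicate 6, at 81.3 RPM, lay above the control mean. Leaving out WT replicate 1, Het replicate 2 or 4, or KO replicate 1, 2 or 3 raised the exact p of this gene to between 0.0541 and 0.0821. Whether the counted exons lie in the altered sequence is not given, so this level does not check the genotype, and KO stands for the libraries labelled KO throughout.

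Per length of transcript, Catsper2 was the most abundant of the 10 in control testis. The scale is RPM per kb of the longest coding transcript in GENCODE M21, and levels of different genes are compared on it alone. Catsper2 had 107.5 ± 14.8 RPM per kb (SD, n = 7), and no other gene reached its lowest library within control. The auxiliary subunit gene Catsperd followed with 71.9 ± 11.9 RPM per kb. Next came the other pore genes, Catsper3 with 60.3 ± 4.45, Catsper4 with 57.5 ± 7.61 and Catsper1 with 43.5 ± 7.72 RPM per kb. The potassium channel genes were lower, Lrrc52 with 27.3 ± 4.34 and Kcnu1 with 21.9 ± 4.67 RPM per kb. Catsperg2 had 20.5 ± 4.92 and Catsperb 18.2 ± 2.83 RPM per kb, and Catsperg1 was last with 9.84 ± 1.59 RPM per kb. Neighbours in this order overlapped in their control libraries, other than Catsper2 with Catsperd and Catsperb with Catsperg1. In KO the order was the same but for Catsperg2, which moved to place 7, and Kcnu1, which moved to place 8. The places of Catsperg1 and Catsperg2 rest on the uncertain split between them.

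**Figure D1:**
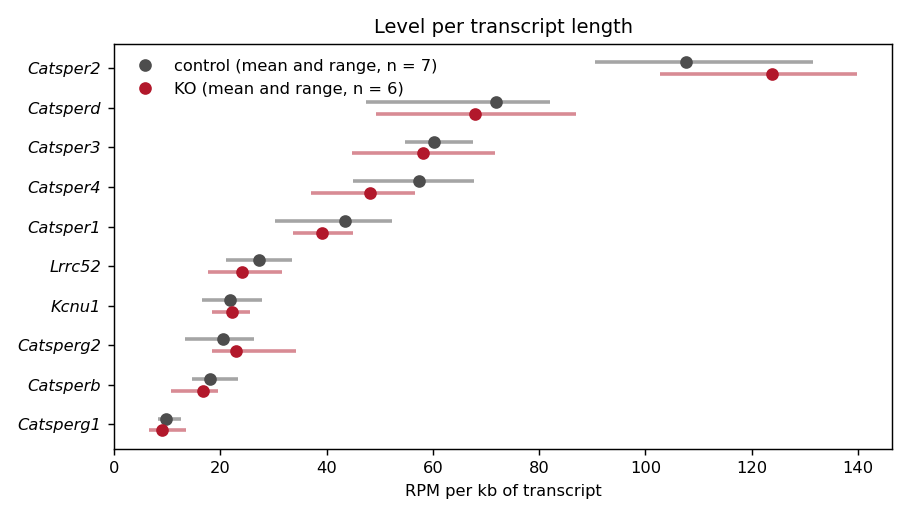
Level of each gene on the x axis in RPM per kb of transcript, with points for the mean and lines for the lowest to highest library of control (n = 7) and KO (n = 6). Catsper2 stands alone at the top at 107.5 RPM per kb in control and Catsperg1, whose split from Catsperg2 is uncertain, is lowest at 9.84, and within each gene the control and KO lines overlap.

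In KO testis none of the 10 channel genes passed the test against control. With limma across all 16235 tested genes, 3997 were called at an adjusted p under 0.05, which is 24.6%. Of these 2994 rose (18.4%) and 1003 fell (6.18%). Among the 10, 0 were called, 2 had an unadjusted p under 0.05 (36.8% of all genes did), and by limma-voom on the recovered reads 0 were called and 1 had an unadjusted p under 0.05. Their log2 differences ran from -0.26 to 0.20, with 7 lower and 3 higher in KO (32.8% of all genes were lower). Their median was -0.10, against a median of 0.16 over all tested genes. The 95% confidence intervals all lay between -0.50 and 0.50 on the log2 scale of RPM + 1. For all 10 the control and KO libraries overlapped, while 7.96% of all genes had groups that did not overlap. Het replicate 2 was the lowest control library for Catsper2, Catsper4, Catsperd, Catsperg2, Kcnu1 and Lrrc52. The 10 summed to 993 ± 112 RPM (SD, n = 7) in control and 991 ± 106 RPM (SD, n = 6) in KO. In whole testis a lower value cannot tell fewer cells of a type from less RNA in each cell. Title number 1 holds KO replicates 1 to 3 but only Het replicate 1 among the controls. The values of KO against control therefore mix genotype with title number in part. With the title number as a covariate the median of the 10 was -0.04, against 0.17 over all genes. In that fit 1 of the 10 was called by limma, while 3506 of all 16235 genes were.

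The scaling of the libraries matters for the sign of such small differences. RPM gives each library the same total, and 74.9% of the called genes were then higher in KO. After median-of-ratios scaling this share was 49.9%, after quantile normalization 48.8% and after scaling to round spermatid markers 88.1%. The median of all genes was 0.02, -0.01 and 0.28 under these scalings, and that of the 10 channel genes -0.25, -0.19 and 0.02. Under each of them the median of the 10 was below that of all genes. Median-of-ratios and round spermatid scaling move all genes of a library nearly alike, so they could hardly change this order.

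**Figure D2:**
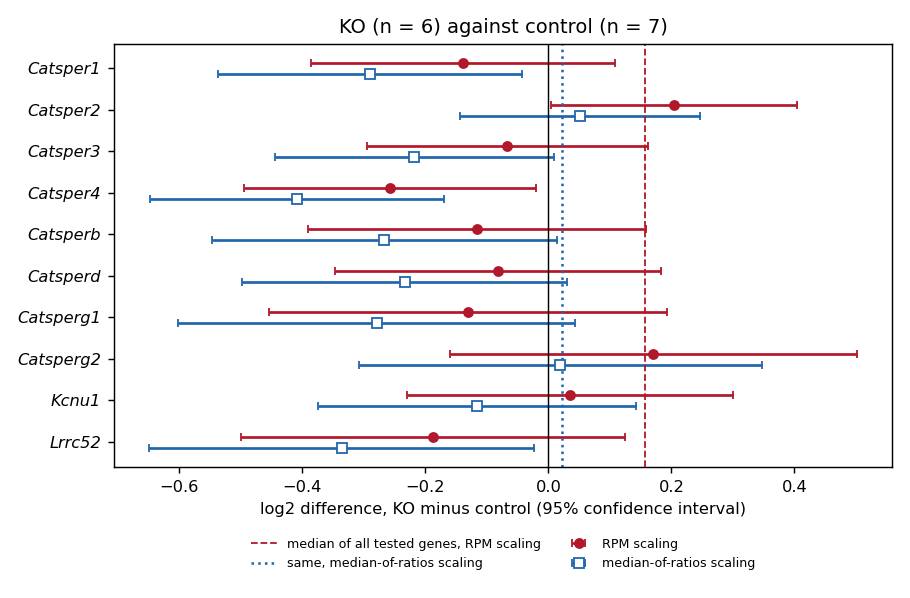
Log2 difference of each gene, KO minus control, on the x axis with its 95% confidence interval, for RPM scaling (filled) and median-of-ratios scaling (open). The dashed and dotted lines are the medians of all tested genes, 0.16 and 0.02. With RPM all intervals lie between -0.50 and 0.50, and median-of-ratios scaling moves every gene to the left.

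Catsper4, a pore gene, was the lowest of the 10 in KO relative to control. Its level was 99.9, 106 and 108 RPM in WT, 88.1, 77.5, 117 and 97.9 RPM in Het, and 64.1 to 97.6 RPM in KO with a median of 84.5. All 6 KO libraries were below the control mean, but 4 of them lay within the range of the Het libraries. The log2 difference was -0.26 (SE 0.114, 95% interval -0.49 to -0.02), and it did not pass the test (adjusted p = 0.105). It passed after median-of-ratios scaling (-0.41, adjusted p = 0.0142), after quantile normalization (-0.33, adjusted p = 0.0475) and without Het replicate 2, the lowest control (-0.31, adjusted p = 0.0470).

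Catsper2, also a pore gene, was the highest of the 10 in KO relative to control. It had 228, 295 and 241 RPM in WT, 221, 204, 223 and 278 RPM in Het, and 231 to 314 RPM in KO with a median of 279.6. In KO, 5 of 6 libraries were above the control mean, and 3 were above the highest control library. The log2 difference was 0.20 (SE 0.0960, 95% interval 0.00 to 0.40) and did not pass (adjusted p = 0.128). It passed after quantile normalization (0.29, adjusted p = 0.0313), after scaling to round spermatid markers (0.33, adjusted p = 0.0164), with the title number as a covariate (0.29, adjusted p = 0.0305) and with number 2 as the only KO libraries (0.35, adjusted p = 0.0430). After median-of-ratios scaling it was 0.05.

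These pore genes thus leaned in opposite directions, which their ratio within each library shows without any scaling. The ratio of Catsper2 to Catsper4 RPM was 1.91 to 2.85 in control, with a median of 2.51, and 2.58 to 4.23 in KO, with a median of 3.27. In KO, 5 of 6 libraries exceeded the highest control ratio. The pair was picked after their values were seen, so the ratio is a description and was not tested.

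Catsper1 encodes the pore subunit with a long histidine-rich end. It had 103, 114 and 66.5 RPM in WT, 92.7, 95.5, 82.2 and 112 RPM in Het, and 73.7 to 98.4 RPM in KO with a median of 84.6. The lowest library of all 13 was WT replicate 3, and the KO libraries lay inside the control range. The log2 difference was -0.14 (95% interval -0.39 to 0.11, adjusted p = 0.422).

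Catsper3 had the narrowest control spread of the pore genes. It had 75.5, 83.3 and 72.9 RPM in WT, 89.7, 75.8, 80.0 and 84.1 RPM in Het, and 59.6 to 95.3 RPM in KO with a median of 79.2. Its KO libraries reached both below and above every control, with an SD of 14 RPM against 5.92 in control. The log2 difference was -0.07 (95% interval -0.30 to 0.16, adjusted p = 0.698).

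Among the auxiliary subunits, neither Catsperb nor Catsperd passed the test. Catsperb had 54.6, 60.0 and 67.5 RPM in WT, 71.1, 72.0, 60.7 and 86.6 RPM in Het, and 40.3 to 73.1 RPM in KO with a median of 65.6. Catsperd, whose protein is needed for the channel to assemble, had 170.3, 200.1 and 205 RPM in WT, 191, 122, 190.0 and 209.6 RPM in Het, and 126 to 222 RPM in KO with a median of 173. KO replicate 2 had the lowest KO value for both, and Het replicate 2 the lowest value of all for Catsperd. The log2 differences were -0.12 for Catsperb (95% interval -0.39 to 0.16, adjusted p = 0.562) and -0.08 for Catsperd (95% interval -0.35 to 0.18, adjusted p = 0.680).

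Neither of the gamma subunit genes passed the test, and the split of reads between them is uncertain. Catsperg1 had 32.0, 41.8 and 36.4 RPM in WT, 30.4, 34.1, 31.9 and 46.2 RPM in Het, and 24.0 to 49.9 RPM in KO with a median of 31.7. Catsperg2 had 63.3, 95.8 and 94.2 RPM in WT, 67.8, 52.6, 89.1 and 104 RPM in Het, and 73.1 to 136 RPM in KO with a median of 85.0. KO replicate 6 was the highest of all 13 libraries for both. The log2 differences were -0.13 for Catsperg1 (95% interval -0.45 to 0.19, adjusted p = 0.580) and 0.17 for Catsperg2 (95% interval -0.16 to 0.50, adjusted p = 0.468). Their sum was 117 ± 24.0 RPM (SD, n = 7) in control and 124 ± 31.4 RPM (SD, n = 6) in KO. The ratio of Catsperg2 to Catsperg1 was 1.54 to 2.79 in control and 2.14 to 3.67 in KO.

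The potassium channel genes did not pass either. Kcnu1 had 62.7, 98.3 and 77.4 RPM in WT, 63.7, 58.8, 97.5 and 84.6 RPM in Het, and 65.4 to 90.6 RPM in KO with a median of 77.9. Lrrc52 had 38.3, 30.6 and 25.8 RPM in WT, 34.8, 24.1, 32.6 and 32.0 RPM in Het, and 20.2 to 36.1 RPM in KO with a median of 25.8. The KO libraries of Kcnu1 lay wholly inside the control range, and those of Lrrc52 reached below it in 2 libraries. The log2 differences were 0.04 for Kcnu1 (95% interval -0.23 to 0.30, adjusted p = 0.873) and -0.19 for Lrrc52 (95% interval -0.50 to 0.12, adjusted p = 0.384). The ratio of Kcnu1 to Lrrc52 RPM was 1.64 to 3.21 in control and 1.95 to 3.73 in KO. Over the 28 alternative settings, the 10 genes gave 280 differences, of which 24 had the opposite sign and 7 passed the threshold, all 7 of them for Catsper2 or Catsper4.

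**Figure D3:**
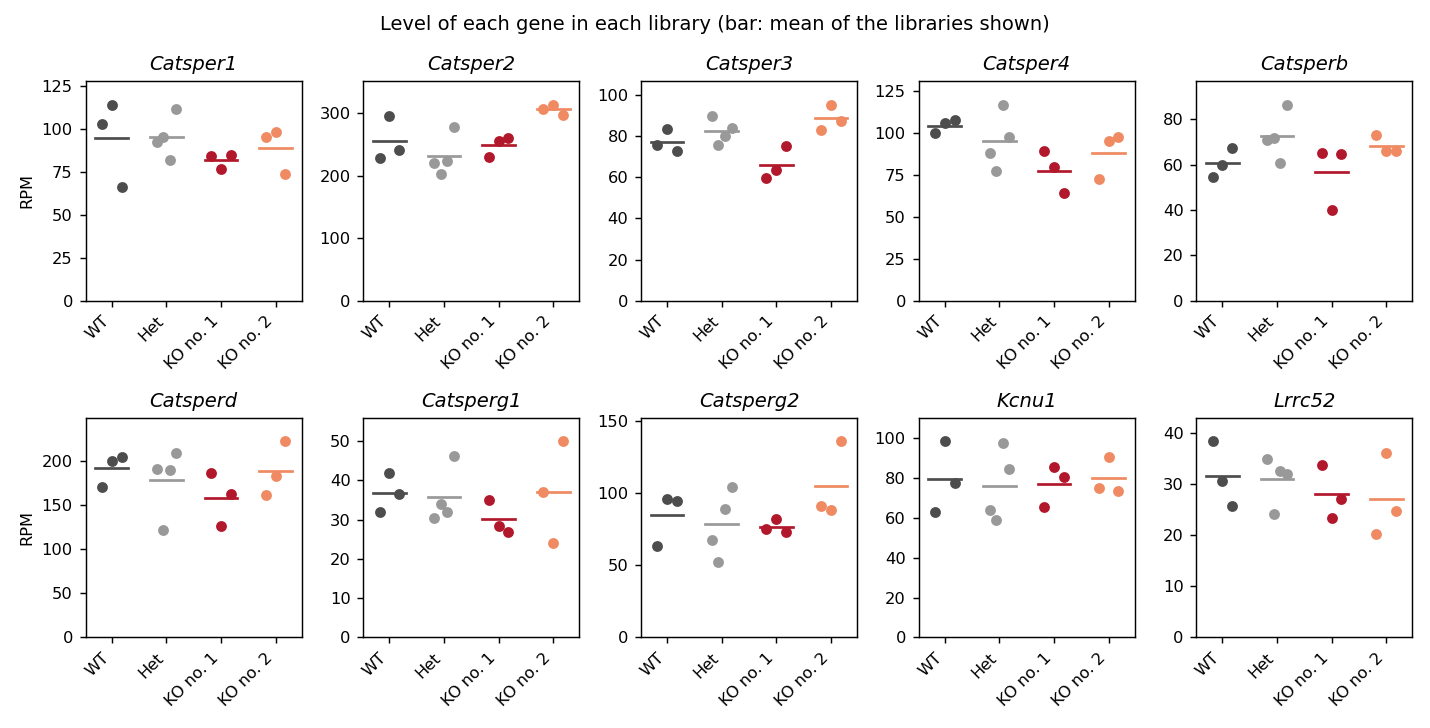
Level of each gene in each library, in RPM on the y axis, with WT (n = 3), Het (n = 4) and the KO libraries of title number 1 and number 2 (n = 3 each) along the x axis and a bar at each mean. The control and KO points overlap for all 10 genes, and for Catsper2, Catsper3, Catsperb and Catsperg2 every KO library of number 2 lies above every one of number 1.

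No difference between WT and Het passed the test in these genes. In this comparison 0 of the 10 were called by limma and 0 had an unadjusted p under 0.05. Over all tested genes 0 were called, which is 0%, while 957 (5.89%) had an unadjusted p under 0.05, and limma-voom also called 0, with 897 under 0.05 unadjusted. The log2 differences, Het minus WT, ran from -0.15 for Catsper4 to 0.25 for Catsperb, with a median of -0.06 against -0.04 over all genes. The lowest adjusted p was 0.933. With groups of 3 and 4 libraries the 95% intervals reached down to -0.59 (Catsperg2) and up to 0.62 (Catsperb). Differences inside a gene's own interval are not excluded by the data.

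Within KO, the libraries of title number 2 were higher than those of number 1 for 9 of the 10 genes, and none of these differences passed the test. The exception was Lrrc52. Over all tested genes 56 were called between the KO libraries of the different numbers, which is 0.345%, and 46.4% were higher in number 2. The median log2 difference of the 10 genes, number 2 minus number 1, was 0.25, against -0.03 over all genes. In the same libraries the Sertoli list was lower in number 2 for 8 of 9 genes (median -0.37, with sums of 2557 to 3329 RPM against 3605 to 3988 RPM in number 1). The macrophage list was lower for 9 of 10 (median -0.71, 139 to 168 against 214 to 313 RPM) and the Leydig list for 5 of 8 (median -0.19, 5655 to 6020 against 6971 to 9921 RPM). The peritubular list was higher in number 2 for 3 of 4 genes (median 0.44) and the endothelial list for 2 of 3 (median 0.28). The late spermatid list was lower for 10 of 12 (median -0.21), and the round spermatid and pachytene lists had medians of 0.03 and 0.06. Medians of the spermatogonial and early meiotic lists were -0.07 and -0.06. None of these marker genes was called between the numbers, and their part in the values of the channel genes was not tested. The 10 genes summed to 902 ± 35 RPM in number 1 and 1079 ± 56.7 RPM in number 2 (SD, n = 3 each), with control at 993 ± 112 RPM (SD, n = 7). Of the 10, 2 had an unadjusted p under 0.05 by limma and 2 by limma-voom, against 12.6% of all genes by limma.

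Catsper3 had the lowest p of the 10 between the KO libraries of the different numbers. It had 59.6, 63.5 and 75.2 RPM in KO number 1 and 83.1, 95.3 and 87.6 RPM in KO number 2. The log2 difference was 0.42 (SE 0.134, 95% interval 0.14 to 0.70), with an unadjusted p of 0.00504 by limma and an adjusted p of 0.180. The control libraries, at 72.9 to 89.7 RPM, lay between these sets and overlapped both.

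Catsper2 had 231, 256 and 261 RPM in KO number 1 and 308, 314 and 298 RPM in KO number 2, a log2 difference of 0.30 (adjusted p = 0.320). Catsperb had 65.2, 40.3 and 64.9 RPM in number 1 and 73.1, 66.2 and 66.0 RPM in number 2. Catsperg2 had 75.1, 81.9 and 73.1 RPM in number 1 and 91.3, 88.1 and 136 RPM in number 2, also a log2 difference of 0.42 (adjusted p = 0.442). Its sum with Catsperg1 was 107 ± 5.95 RPM in number 1 and 142 ± 38.7 RPM in number 2 (SD, n = 3 each), and the sums did not overlap. For these 3 genes and Catsper3 the libraries of the different numbers did not overlap, while 17.2% of all genes did not overlap in this comparison. In Kcnu1 they did overlap, with 65.4, 85.4 and 80.6 RPM in number 1 and 75.1, 90.6 and 73.3 RPM in number 2.

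Set against the same 7 controls, the KO libraries of number 1 gave lower values than those of number 2 for every one of the 10 genes other than Lrrc52. Catsper3 was -0.28 (95% interval -0.52 to -0.04, adjusted p = 0.0909) in number 1 and 0.14 (95% interval -0.09 to 0.38, adjusted p = 0.415) in number 2. Catsper4 was -0.35 (adjusted p = 0.0693) in number 1 and -0.16 (adjusted p = 0.452) in number 2. Catsperg2 was -0.04 (adjusted p = 0.896) in number 1 and 0.38 (adjusted p = 0.204) in number 2. Both sets share their controls, and the test of the difference between them is the one given above. Within number 2 alone, 3 KO against 3 WT and 3 Het libraries, 0 of the 10 were called, while 1515 of all 16235 tested genes were. Of the 10, Catsper2 was nearest with 0.33 (adjusted p = 0.0760). Number 1 holds 1 control library, Het replicate 1, so no such value is given for it. The values of KO number 1 against the 7 controls thus mix genotype with title number, and those of all KO libraries do so in part.

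**Figure D4:**
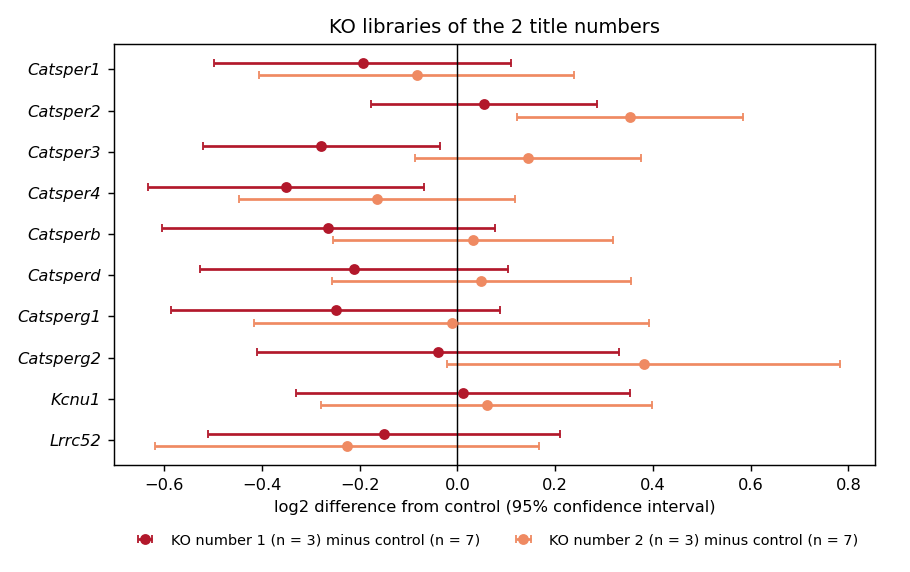
Log2 difference from control (n = 7) on the x axis with its 95% confidence interval, for the KO libraries of title number 1 and of title number 2 (n = 3 each). Number 2 lies to the right of number 1 for all genes but Lrrc52, and Catsper2 in number 2 (0.35), Catsper3 in number 1 (-0.28) and Catsper4 in number 1 (-0.35) have intervals that leave out 0.

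Of the other subunits of the CatSper complex 0 were called by limma or limma-voom, and 0 had an unadjusted limma p under 0.05. Of 8 listed, 4 were found in the table and tested, and their median log2 difference was -0.11 (0.16 over all genes). Among all tested genes limma called 24.6%, and 36.8% had an unadjusted p under 0.05. Catsperz, a small subunit in the table as 1700019N12Rik, had 410 ± 38.1 RPM in control and 371 ± 44.3 RPM in KO (log2 -0.15, adjusted p = 0.193). Its calcium-binding partner Efcab9 had 117 ± 11.7 and 105 ± 8.76 RPM (log2 -0.16, adjusted p = 0.210), and was below the control mean in 6 of 6 KO libraries. Among the controls Efcab9 had 106 ± 8.30 RPM in WT (SD, n = 3), near the KO level, and 125 ± 3.82 RPM in Het (SD, n = 4). Both passed after median-of-ratios scaling, Catsperz with -0.30 (adjusted p = 0.0135) and Efcab9 with -0.31 (adjusted p = 0.0251), and Catsperz also without KO replicate 6 (-0.21, adjusted p = 0.0411). Slco6c1, a transporter-like member of the complex, had 179 ± 31.5 and 169 ± 10.3 RPM (log2 -0.07, adjusted p = 0.653). Catspere2, in the table as Gm16432, had 3.53 ± 1.34 and 4.48 ± 2.26 RPM (log2 0.22, adjusted p = 0.606).

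Relatives of the KSper subunits, most of which serve the calcium-gated potassium channel BK of many tissues, moved in both directions. Of 7 with reads, 5 were tested, of which 1 rose and 2 fell, with a median log2 difference of -0.34. Among all tested genes 18.4% rose and 6.18% fell. Kcnma1, the BK pore gene, rose from 4.30 ± 2.78 to 10.2 ± 3.43 RPM (log2 1.19 with an SE of 0.303, adjusted p = 0.00679), being above the control mean in 6 of 6 KO libraries. The call was lost within number 2 (1.07, adjusted p = 0.0993), for KO number 2 alone (1.0, adjusted p = 0.0942) and against Het alone (0.76, adjusted p = 0.0782). Kcnmb4, a BK beta subunit, fell from 119 ± 19.1 to 93.5 ± 15.4 RPM (log2 -0.34, adjusted p = 0.0343). Kcnmb2, another, fell from 3.50 ± 0.718 to 1.85 ± 0.657 RPM (log2 -0.67, adjusted p = 0.0358).

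The calls of Kcnmb4 and Kcnmb2 lay near the threshold. That of Kcnmb4 was lost in 6 of 13 settings that each left out 1 library (WT replicate 1, Het replicate 2, and KO replicates 1, 2, 3 and 5), at adjusted p-values of 0.0538 to 0.0920, while its log2 difference stayed between -0.42 and -0.28 over all 13. It was also lost in 7 of 15 other settings, among them round spermatid scaling (-0.22, adjusted p = 0.181) and KO number 2 alone (-0.22, adjusted p = 0.310). That of Kcnmb2 was lost in 7 of 13 (WT replicates 1 and 2, Het replicates 1 and 2, and KO replicates 3, 4 and 6), at 0.0583 to 0.0775, with log2 differences of -0.76 to -0.59 over all 13, and in 8 of 14 other settings. Among these were limma-voom (adjusted p = 0.0580), round spermatid scaling (-0.55, adjusted p = 0.0753) and KO number 1 alone (-0.52, adjusted p = 0.200).

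Lrrc55, a relative of Lrrc52 and a BK gamma subunit, had 5.28 ± 0.895 RPM in control and 3.29 ± 0.976 RPM in KO (log2 -0.58, adjusted p = 0.0579), and passed in 4 settings: without KO replicate 2 (-0.65, adjusted p = 0.0482), without KO replicate 6 (-0.63, adjusted p = 0.0492), after median-of-ratios scaling (-0.70, adjusted p = 0.0265) and after quantile normalization (-0.83, adjusted p = 0.0105). Lrrc38, also a BK gamma subunit, had between 1.47 and 7.58 RPM in KO number 1, 0 in KO number 2, and among the controls reads in Het replicate 1 alone (0.631 RPM). Het replicate 1 and KO replicates 1 to 3 are all 4 libraries of number 1. Its log2 difference, KO minus control, was 1.10 (adjusted p = 0.0870). It passed for KO number 1 alone (2.31, adjusted p = 0.00041), with the replicate block (1.83, adjusted p = 0.00511), after round spermatid scaling (1.22, adjusted p = 0.0464) and without KO replicate 4, 5 or 6 (1.34 each, adjusted p = 0.0417 to 0.0438). Kcnmb1 and Lrrc26 were under 1 RPM on average and were not tested.

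The wider list of sperm ion transporters, chosen from general knowledge, held 20 genes, of which 18 were tested, 2 rose and 1 fell. Their median log2 difference was 0.07, and among all tested genes 18.4% rose and 6.18% fell. Atp1a4, the sodium pump of sperm, fell from 815 ± 122 RPM (653 to 985) in control to 585 ± 61.5 RPM (513 to 655) in KO, with 6 of 6 KO libraries below the control mean. Its log2 difference was -0.47 (SE 0.0931, adjusted p = 0.000986), and it passed in all 28 alternative settings. Atp2b4, a calcium pump of the plasma membrane, rose from 21.3 ± 4.10 to 29.0 ± 3.20 RPM (log2 0.44, adjusted p = 0.0270). Slc26a6, an anion exchanger, rose from 2.00 ± 1.88 to 3.95 ± 0.938 RPM (log2 0.88, adjusted p = 0.0392).

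Neither rise held in all settings. Atp2b4 did not pass after median-of-ratios scaling (0.29, adjusted p = 0.155) or quantile normalization (0.19, adjusted p = 0.382), nor without WT replicate 1 or 3, Het replicate 3, or KO replicate 1 or 4 (0.0529 to 0.0615). It was lost in 9 of 15 settings other than leaving out 1 library, the rest of them being the replicate block, the title number as a covariate and the 5 subsets of the libraries. Slc26a6 did not pass after median-of-ratios scaling (0.77, adjusted p = 0.0798), in 8 more of those other settings (0.0609 to 0.286), nor in 9 of 13 settings that left out 1 library (WT replicates 1 and 2, Het replicates 1, 2 and 4, and KO replicates 1, 2, 4 and 6, at 0.0583 to 0.0800). The sodium-proton exchanger of sperm, Slc9c1, in the table as Slc9a10, had 106 ± 31.1 RPM in control and 102 ± 16.3 RPM in KO (log2 -0.02, adjusted p = 0.950). The proton channel gene Hvcn1 had 3.82 ± 1.66 and 3.82 ± 1.69 RPM. Its log2 difference was -0.0093 (95% interval -0.58 to 0.56).

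Genes of calcium and cAMP signalling in sperm, listed as effectors, were lower in part. Of 12 such genes 6 fell and 0 rose, with a median log2 difference of -0.22, while 6.18% of all tested genes fell. Akap4, the scaffold protein of the fibrous sheath that holds protein kinase A, fell from 2716 ± 335 RPM (2228 to 3176) to 1577 ± 261 RPM (1159 to 1843). Its log2 difference was -0.79 (SE 0.10, adjusted p = 1.5e-05) and the groups did not overlap. Prkar2a, a regulatory subunit of protein kinase A, fell from 143 ± 26.7 to 73.0 ± 25.8 RPM (log2 -1.01, adjusted p = 0.00037). Plcz1, the sperm phospholipase that starts calcium waves in the egg, fell from 294 ± 43.6 to 199 ± 21.5 RPM (log2 -0.55, adjusted p = 0.000436). These 3 passed in all 28 alternative settings.

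Camk4, a calcium-dependent kinase, fell from 87.2 ± 9.09 to 64.0 ± 8.33 RPM (log2 -0.44, adjusted p = 0.00361), a call lost against WT alone, within number 2 and for KO number 2 alone (0.0520 to 0.0778). Cabyr, a calcium-binding fibrous sheath protein, fell from 469 ± 40.8 to 389 ± 51.2 RPM (log2 -0.27, adjusted p = 0.0255). It did not pass without Het replicate 3, Het replicate 4 or KO replicate 6 (0.0512 to 0.0574). Nor did it in 7 of 15 other settings, which were quantile normalization (-0.15, adjusted p = 0.249), no filter, round spermatid scaling, each KO number alone, number 2 within itself and WT alone as control (0.0507 to 0.407). The sixth was Ppp3r2, a calcineurin subunit of the testis (log2 -0.19, adjusted p = 0.0465). This call lay near the threshold, and its values under the alternative settings are not given here. Adcy10, the bicarbonate-sensitive adenylyl cyclase of sperm, had 304 ± 55.2 RPM in control and 252 ± 20.4 RPM in KO (log2 -0.26, adjusted p = 0.0747), and passed after median-of-ratios scaling (-0.41, adjusted p = 0.00969), without WT replicate 1 (-0.32, adjusted p = 0.0162) and against Het alone (-0.35, adjusted p = 0.0293). Whether this list differs from the channel genes was not tested.

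Markers of other cells and stages moved in the same libraries, where 18.4% of all tested genes rose and 6.18% fell. Of 12 late spermatid markers 12 fell, with a median log2 difference of -1.06, and their summed level was 14292 to 18910 RPM in control and 6001 to 9414 RPM in KO. Akap4 is in this list as well as in the list of calcium and cAMP effectors. Of 11 round spermatid markers 3 fell and 0 rose (median -0.06), and their sum was 3216 to 3547 RPM in control and 2916 to 3213 RPM in KO. Of 11 pachytene spermatocyte markers 2 fell and 0 rose (median -0.05), with sums of 9740 to 11204 RPM in control and 9204 to 10553 RPM in KO. The medians of the 10 channel genes and of these round spermatid and pachytene lists all lay between -0.10 and -0.05.

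The lists of Sertoli, Leydig and macrophage markers were higher in KO for most of their genes. Of 9 Sertoli cell markers 6 rose (median 0.59, with sums of 1454 to 2414 RPM in control and 2557 to 3988 RPM in KO), of 8 Leydig cell markers 7 rose (median 0.91, 2351 to 4223 against 5655 to 9921 RPM), and of 10 macrophage markers 8 rose (median 0.98, 69.9 to 113 against 139 to 313 RPM). In each of these 3 lists 0 fell. Of 9 spermatogonial markers 3 rose (median 0.42, 115 to 167 against 172 to 273 RPM). The other lists were called in part or not at all: 1 of 4 peritubular markers rose (median 0.48), 2 of 3 endothelial markers rose (median 1.57), and 0 of 8 early meiotic markers were called (median 0.13). No marker was at 0 in all libraries. The part of these shifts in the values of the channel genes was not tested.

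**Figure D5:**
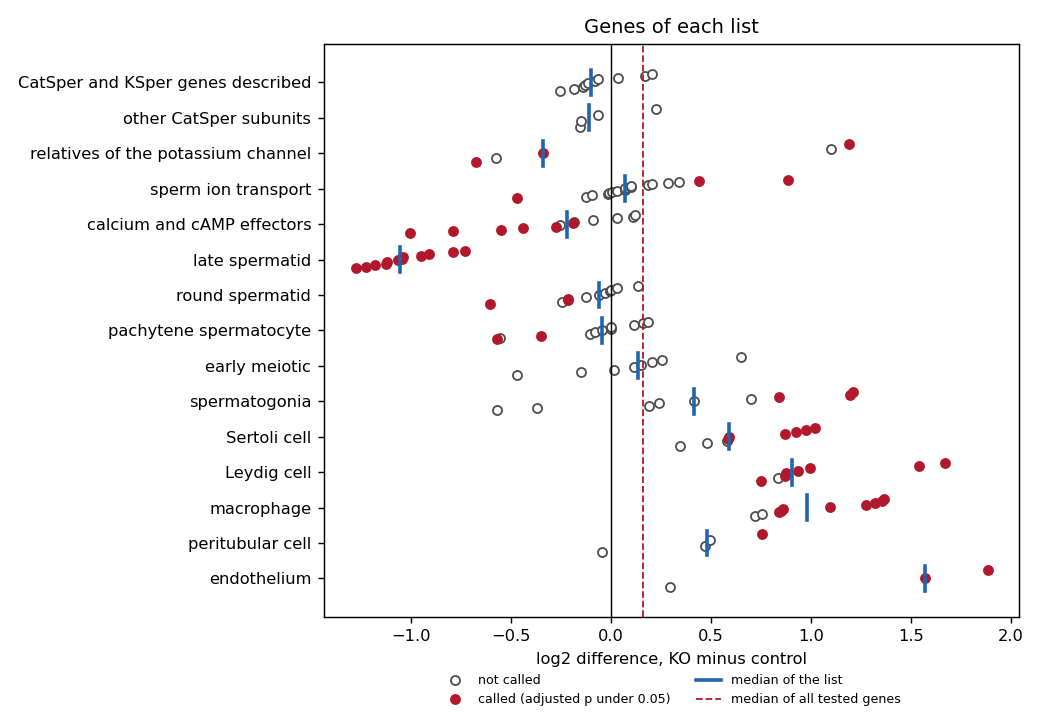
Log2 difference, KO minus control, on the x axis for each tested gene (points, filled where called) of each list along the y axis, with a bar at the list's median and a dashed line at the median of all genes, 0.16. The 10 channel genes have a median of -0.10 and no filled point, beside -0.06 for round spermatid markers and -1.06 for late spermatid markers.

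The genes whose pattern over the 13 libraries was most like that of Catsper4, the channel gene with the lowest p in KO against control, were Afap1, Sec1 and Mycbpap, out of 8838 candidates. Likeness was the mean absolute difference of log2(RPM + 1) after centring each gene on its mean. It was 0.102 for Afap1, 0.102 for Sec1 and 0.104 for Mycbpap, where the mean absolute deviation of Catsper4 itself was 0.195. Their own log2 differences, KO minus control, were -0.19, -0.13 and -0.13.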

How the data were processed

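The authors' deposited table holds log2 RPM of 25965 genes in 13 libraries, and columns of all 13 were used, with 0 left out. Per the labels' protocols, each Smart-seq2 library was amplified over 11 PCR cycles from about 2 ng of total testis RNA. The submitters' processing notes name Trim Galore 0.6.6, FastQC 0.11.8 and the genome mm10. Not given in the sources used here are the aligner, the counting program, the strand and the treatment of reads that fit several places.

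The lowest value of each library is that of 0.9 read and was set to 0. Above it, at least 99.96% of the values in a library came out as whole reads, to within 0.01 read. A count of 0 allows up to 3 reads (95% confidence), 0.270 to 0.665 RPM by library. This covers counting error only, as PCR copies were not marked. Groups come from the labels, and libraries count as separate mice since the design text numbers the mice.

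On log2(RPM + 1), limma 3.58.1 (R 4.3.3) was run with its mean-variance trend for the 16235 genes averaging 1 RPM or more. Its two-sided p-values were adjusted over all these genes (Benjamini-Hochberg, threshold 0.05). KO against control was fitted with 2 groups, Het against WT with 3, and KO number 2 against KO number 1 with 4. Wfdc15a was tested by an exact permutation test. The unit is log2, so a test made for counts was not used. One alternative was limma-voom, run on reads recovered from the values. The other alternatives were the pseudocount, the filter, the scaling, the replicate block, the title number, subsets of the libraries and leaving out each library.

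The members, the lists and the tests were chosen with earlier results of these data known. The lists hold 142 genes, of which 130 matched by symbol, 8 by an older symbol through RefSeq and 4 not at all (Catspere1, Tmem249, Tmem262 and C2cd6). Genes were named by a rule: all 10 channel genes, the other CatSper genes and KSper relatives with reads, Slc9c1, Adcy10, Atp1a4, Hvcn1 and Atp2b4, up to 6 more called genes of the transporter and effector lists by lowest adjusted p, and for 1 channel gene the 3 most alike genes that average 10 RPM or more. Ppp3r2 and Pdia3 were named outside this rule after their values were seen. Marker genes are given as lists. Transcript lengths and coding sequences are from GENCODE M21.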

Additional observations from a re-analysis of the deposited data

Results flagged for a closer look

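Of 87 groups of libraries over 29 genes, 7 held a library far from the others of its group by Dixon's test, which chance alone gives in about 1 in 20 groups. Among the channel genes, Catsperb in KO replicate 2 had 40.3 RPM, where the next lowest KO library had 64.9 RPM and the highest 73.1 RPM. Catsperg2 in KO replicate 6 had 136 RPM, where the next highest KO library had 91.3 RPM. The same library had the highest KO value of Catsperz, 456 RPM, with the next at 371 RPM. Slco6c1 in Het replicate 4 had 244 RPM among the controls, with the next at 185 RPM. Slc26a6 in WT replicate 3 had 6.02 RPM, with the next control at 2.34 RPM. Lrrc38 had 0.631 RPM in Het replicate 1, among the Het libraries and among the controls, with all others at 0.

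The KO libraries of the different title numbers differed by test in Wfdc15a and in Lrrc38. Wfdc15a was higher in number 2 by 1.10 on the log2 scale (adjusted p = 0.0412 by limma), and Lrrc38 differed by -2.41, number 2 minus number 1 (adjusted p = 0.0241).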

How the results depend on the processing

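None of the 10 channel genes was called in KO against control under 22 of 28 alternatives. The count was 1 after median-of-ratios scaling, after scaling to round spermatid markers, with the title number as a covariate, for KO number 2 alone and without Het replicate 2 (0 to 1 over single libraries left out), and 2 after quantile normalization. The 3997 genes called in all became 1515 within number 2, 1938 for KO number 2 alone and 1311 against WT alone, and 3262 to 3997 with single libraries left out, and the cause was not tested, though these fits hold fewer samples. The 56 genes called between the KO numbers became 20 with a pseudocount of 0.1, 20 without the filter, 36 by limma-voom and 11 (without KO replicate 2) to 114 (without Het replicate 1). Het against WT gave 0 to 3 genes, with 3 without WT replicate 1. With single libraries left out, the Wfdc15a log2 difference was -0.86 to -0.46.

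With the replicate number as a block, 3830 genes and 0 channel genes were called in KO against control, and 0 genes in Het against WT. Nothing in the labels says that the numbers pair the mice. Of 10 same-numbered pairs of libraries, 1 had deviations correlated above 0.1 (-0.08 to 0.13). Of 44 pairs with different numbers, 5 did (-0.13 to 0.18). Such correlations cannot tell whether the mice were paired. The block is therefore not read as a paired test. Calls gained or lost under it, such as those of Lrrc38 and Atp2b4, are counted only as those of an alternative setting. No paired analysis was possible between the KO numbers because they share no replicate numbers. Under the block Catsperg2 was -0.017 and Kcnu1 -0.0051.

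Signs that turned were all of differences that did not pass. Scaled to round spermatid markers, Catsper3 was 0.055, Catsperb 0.0064, Catsperd 0.041 and Slco6c1 0.054. Within number 2, Catsper3 was 0.17, Catsperb 0.047 and Catsperd 0.061. For KO number 2 alone Catsper3 was 0.14, Catsperb 0.032, Catsperd 0.049 and Lrrc38 -0.10, and for number 1 alone Catsperg2 was -0.040. Catsper3 was 0.0043 with the covariate. Against WT alone Catsperb was 0.026, Kcnu1 -0.0033 and Slco6c1 0.10. Kcnu1 was -0.12 after median-of-ratios scaling and -0.064 after quantile normalization, where Catspere2 was -0.023. With single libraries left out Catsper3 was -0.13 to 0.0035, Catsperb -0.16 to 0.0041, Catsperd -0.18 to 0.0056, Kcnu1 -0.026 to 0.096 and Slco6c1 -0.11 to 0.0085. Genes near 1 RPM rest on few reads. The 10 channel genes had at least 91 reads in each library, and how far depth limits their values was not tested.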
